A study of Mus musculus with 5 samples.

Results

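Among the tumor epithelial cells of this study, a small number carried UMIs of Sprr1a, a cornified envelope precursor, or of Klk6, a secreted serine protease of the kallikrein family. These cells were chosen by measured values. A cell qualified when its gene UMIs (unique molecular identifiers, each counting 1 captured RNA molecule) numbered at least 2500 and did not pass a fixed upper limit, and when it had at most 20% mitochondrial UMIs, at least 5 UMIs of Epcam, Krt8 and Krt18 together, no Ptprc UMI, and at least 3 UMIs of Sprr1a and Klk6 together. Of 30340 deposited cells, 19533 were inside the UMI and mitochondrial limits, 13412 of those were epithelial by the rule, and 57 of those met the last condition. They are called Sprr1a/Klk6 cells here, and the remaining epithelial cells of the same tumors are called other epithelial cells.

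The cells came from mammary tumors of MMTV-PyMT mice on the FVB/N background, whose transgene places polyoma middle T under the promoter of the mouse mammary tumor virus and is active mainly in the mammary gland. All mice carried it. From 7 weeks of age they received 5 mg/kg of isotype IgG2a (clone C1.18.4) or of B20-4.1.1 (anti-VEGF-A) intraperitoneally 2 times a week for 6 weeks, and viable cells were sorted as DAPI-. There were 6 isotype and 9 B20-4.1.1 tumors, sequenced as 5 pools of 3 tumors marked with multiplexing oligonucleotides. No pool mixed the treatments, and an effect of the one cannot be told apart from an effect of the other. The study further classed treated tumors by their hypoxia, which the labels do not give, so the B20-4.1.1 values here may mix those classes. Tumor numbers below only name the samples. The deposited matrices held 4014509 to 23726246 UMIs per tumor.

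Stratified squamous epithelium, such as skin, builds a cornified envelope from small proline-rich proteins, of which Sprr1a is a member, and sheds its outer cells with the help of kallikrein proteases. Simple epithelium such as the mammary duct does not normally complete this program, although squamous differentiation is known to occur in mammary tumors. Luminal mammary cells are commonly divided into hormone-sensing cells, which express the progesterone receptor gene Pgr, and secretory-lineage cells, which express Elf5, Kit and the milk protein genes.

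The start regions of both genes are shown because the cells were chosen on them and because the genes differ there. The windows run from 250 bases before to 50 bases after the annotated start (RefSeq, GRCm38.p6) and are written 5′ to 3′ on the gene's own strand. Capitals mark TGANTCA, a loose form of the core motif bound by AP-1 factors that takes any base at the center. The pattern reads the same on both strands, so that a single search covers both. Sprr1a (ENSMUSG00000050359) lies on the minus strand, with its window at chr3:92485832-92486131. Its neighbor Sprr1b, a paralog, has its window at chr3:92438730-92439029 on the same strand. Klk6 (ENSMUSG00000050063) lies on the plus strand and has 2 annotated starts, with windows at chr7:43824294-43824593 and chr7:43825200-43825499.
Sprr1a: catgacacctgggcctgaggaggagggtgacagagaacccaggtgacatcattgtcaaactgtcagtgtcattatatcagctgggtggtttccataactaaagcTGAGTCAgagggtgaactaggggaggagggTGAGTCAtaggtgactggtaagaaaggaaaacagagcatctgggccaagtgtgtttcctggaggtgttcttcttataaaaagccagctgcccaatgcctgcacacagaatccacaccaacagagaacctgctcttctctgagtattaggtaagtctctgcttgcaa
Sprr1b: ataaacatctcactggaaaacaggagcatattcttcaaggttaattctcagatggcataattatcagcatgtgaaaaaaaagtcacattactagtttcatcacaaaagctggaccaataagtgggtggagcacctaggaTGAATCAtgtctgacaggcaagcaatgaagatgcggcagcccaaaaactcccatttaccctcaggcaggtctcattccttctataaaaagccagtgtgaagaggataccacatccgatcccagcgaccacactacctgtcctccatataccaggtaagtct
Klk6 first start: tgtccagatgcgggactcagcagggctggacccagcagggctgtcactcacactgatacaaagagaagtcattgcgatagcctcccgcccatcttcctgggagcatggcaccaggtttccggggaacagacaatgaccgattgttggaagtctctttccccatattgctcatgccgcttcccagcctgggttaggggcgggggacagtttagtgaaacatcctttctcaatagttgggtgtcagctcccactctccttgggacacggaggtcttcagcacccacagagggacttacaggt
Klk6 second start: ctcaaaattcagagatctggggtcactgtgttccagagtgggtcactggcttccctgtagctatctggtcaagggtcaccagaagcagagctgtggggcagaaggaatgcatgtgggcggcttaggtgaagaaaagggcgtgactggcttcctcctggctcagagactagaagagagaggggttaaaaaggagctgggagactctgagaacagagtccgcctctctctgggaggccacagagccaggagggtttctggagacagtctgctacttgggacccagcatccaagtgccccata
The Sprr1a window held 2 matches, beginning 146 and 116 bases before the start. The Sprr1b window held 1, beginning 111 bases before the start, and neither Klk6 window held any. Both Sprr1a matches have G at the center and the Sprr1b match has A. Of all 32851 windows in the promoter table, 2565 (7.81%) held at least 1 match and 151 (0.460%) held at least 2. A match describes these letters only, and no factor binding was measured. Sprr1b had 12 UMIs among the 57 cells, all in 1 cell.

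The Sprr1a/Klk6 cells were unevenly spread over the tumors. In the isotype group, tumors 1 to 6 held 3 of 1074, 1 of 1476, 2 of 1178, 3 of 1510, 0 of 932 and 4 of 1931 epithelial cells. In the B20-4.1.1 group, tumors 1 to 9 held 1 of 848, 1 of 792, 2 of 284, 1 of 80, 17 of 490, 0 of 157, 12 of 1002, 4 of 700 and 6 of 958. Cells were thus found in 13 of the 15 tumors, and B20-4.1.1 tumors 5 and 7 supplied 29 of the 57. The share was 3.47% in tumor 5 (exact 95% binomial interval 2.03% to 5.50%, which covers counting error only) and 1.20% in tumor 7 (0.620% to 2.08%).

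**Figure D1:**
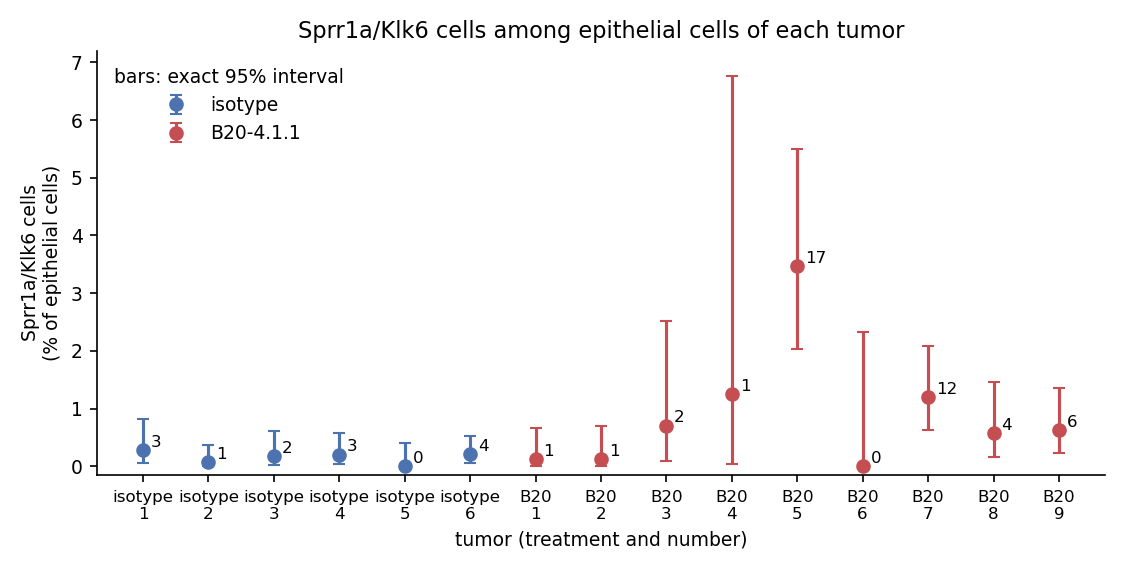
Percent of epithelial cells that were Sprr1a/Klk6 cells in each of 6 isotype and 9 B20-4.1.1 tumors, with exact 95% binomial intervals as bars and the number of such cells beside each point. B20-4.1.1 tumor 5 stands highest at 3.47%, the 6 isotype tumors lie between 0 and 0.279%, and the widest interval belongs to B20-4.1.1 tumor 4, with 80 epithelial cells.

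By treatment, 13 of 8101 isotype epithelial cells (0.160%, interval 0.0855% to 0.274%) and 44 of 5311 B20-4.1.1 epithelial cells (0.828%, 0.603% to 1.11%) met the rule. These intervals pool cells over tumors and cover counting error only, so they do not measure the spread between tumors. The mean over tumors was 0.154% ± 0.102 (SD, n = 6) in isotype and 0.896% ± 1.06 (SD, n = 9) in B20-4.1.1 tumors. Both gene choices came from earlier results on these same tumors, so this contrast is a description and was not tested. The isotype range, 0 to 0.279%, lay inside the B20-4.1.1 range, 0 to 3.47%. The 3 B20-4.1.1 pools had 0.208%, 2.48% and 0.827%, so 1 of them was close to the isotype pools at 0.161% and 0.160%. Without the pool of tumor 5, the B20-4.1.1 mean was 0.557%. At a threshold of 5 UMIs the means were 0.0241% and 0.816%, and 2 isotype cells were left.

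Cells with many UMIs came from B20-4.1.1 tumors. The highest isotype cell had 13 UMIs of the pair of genes, and the highest B20-4.1.1 cell had 1701. All 20 cells with at least 20 UMIs came from B20-4.1.1 tumors (0.377% of their epithelial cells, 0.230% to 0.581%). Of these, B20-4.1.1 tumor 5 held 12, tumor 7 held 3, tumor 3 held 2, and tumors 2, 4 and 8 held 1 each. B20-4.1.1 tumors 1, 6 and 9 held 0. Among 8101 isotype cells 0 had as many. That allows a share of up to 0.0370% by the limit of 3 counts and 0.0455% by the exact interval. Both intervals pool cells over tumors and cover counting error only, not the spread between tumors. Sums over tumors rest on very few cells. Sprr1a had 3089 UMIs in 67 epithelial cells, of which 1 cell held 926 and 5 cells held 80.1%. Klk6 had 2659 UMIs in 109 epithelial cells, of which 1 cell held 64.0% and 5 cells held 85.7%. Thus 98.7% of the Sprr1a UMIs and 96.7% of the Klk6 UMIs lay in the 57 cells. Just inside the threshold were 14 cells with 3 UMIs and 4 with 4, and just outside it were 18 cells with 2 and 92 with 1. Free RNA was gauged in 2463 Ptprc+ cells without Epcam, Krt8 or Krt18 UMIs. In those cells 8 had a Sprr1a UMI and 3 a Klk6 UMI, and none had more than 1. Their median depth was 4391 UMIs against 8675.5 in epithelial cells, and after thinning to 2500 UMIs per cell the shares with a UMI were 0.244% and 0.122%, against 0.261% and 0.380% in epithelial cells. Single UMIs of either gene were therefore not read as expression.

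The rule counted the sum of both genes, so it shaped how they occur together among the chosen cells. Of the 57 cells, 20 had Sprr1a alone, 28 had Klk6 alone and 9 had both, and 5 had at least 3 UMIs of each. For description the cells were split by the gene with more UMIs, a split chosen after the values were seen, into 24 Sprr1a-led cells (4 isotype, 20 B20-4.1.1) and 33 Klk6-led cells (9 and 24). Tumor 5 held 12 of the Sprr1a-led cells and tumor 7 held 11 of the Klk6-led cells. The split therefore moves with the tumor, and differences between the 2 sets carry no test.

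**Figure D2:**
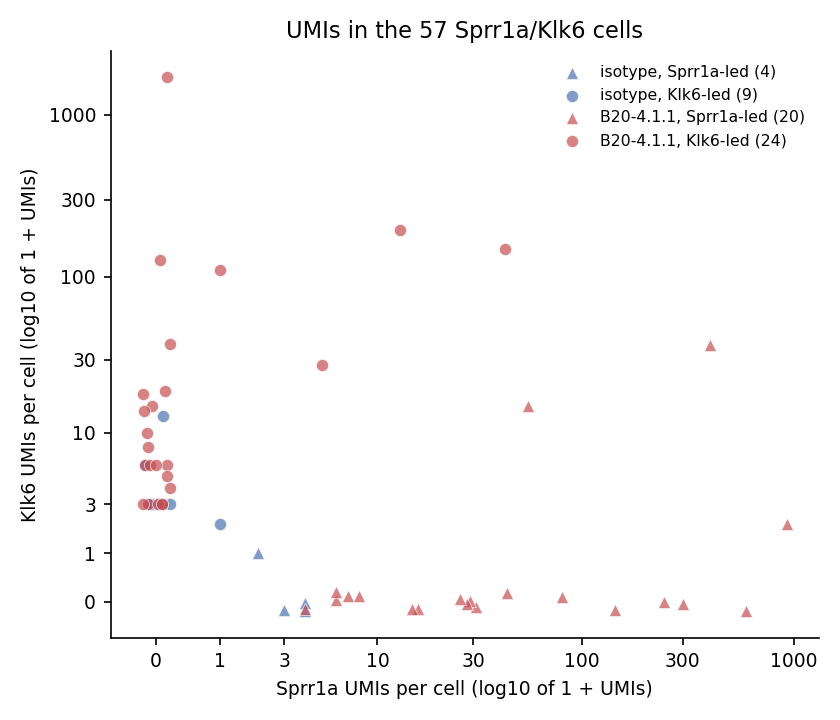
Sprr1a UMIs (horizontal axis) and Klk6 UMIs (vertical axis) of the 57 cells, both as log10 of 1 + UMIs, with color for treatment and symbol for the gene with more UMIs. Points at 0 are jittered. Most cells lie along 1 axis or the other, and all 20 cells with at least 20 UMIs are from B20-4.1.1 tumors, 12 of them from tumor 5.

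Single cells showed how unlike each other the strongest ones were. The cell highest in Klk6, in tumor 5, gave 1701 of its 10374 UMIs (16.4%) to Klk6. It also had 430 UMIs of Klk7, 208 of Klk8, 280 of Klk10, 347 of Klk14 and 452 of Asprv1, an epidermal protease that processes filaggrin, but none of Sprr1a or of the milk protein gene Csn3. The cell highest in Sprr1a, in tumor 7, gave 926 of its 11345 UMIs (8.16%) to Sprr1a. It had 256 UMIs of Lgals7, a galectin of stratified epithelia, 115 of Krtdap, a keratinocyte differentiation gene, 105 of Krt17, 162 of Asprv1, 49 of Crct1, a cornified envelope gene, and 2 of Csn3. A cell in tumor 2 carried 403 Sprr1a and 37 Klk6 UMIs beside 156 of Asprv1, 81 of Cnfn, a cornified envelope gene, 59 of Krt16 and 25 of Krt6a, keratins of activated epidermis. A cell in tumor 3 had 194 Klk6 and 13 Sprr1a UMIs, 215 of Asprv1, 43 of Krt16 and 1625 of Spp1, which encodes osteopontin. A cell in tumor 8 had 110 Klk6 UMIs and 2200 of Cst6, a protease inhibitor of the skin. Most of these genes were missing or near 0 in the strongest Sprr1a-led cells of tumor 5. The 5 highest, with 80 to 597 Sprr1a UMIs, had no Asprv1, Krtdap, Krt17 or Krt16 UMI, at most 2 of Lgals7 and 1 of Krt6a, and had 82 to 239 UMIs of Krt19, 8 to 55 of the prolactin receptor gene Prlr and 2 to 5 of Wnt4. The next, with 55 Sprr1a UMIs, had 83 of Asprv1 and 67 of Krt14 and none of Krt19, Prlr or Wnt4.

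The name squamous-like was checked against 15 further squamous markers. At least 3 of them were detected in 35 of 57 Sprr1a/Klk6 cells (61.4%) and in 11.6% of the 12266 other epithelial cells of the 13 tumors that held such cells. After thinning to 2500 UMIs the shares were 26.3% and 1.54%. Median depth was 12162 and 8605 UMIs per cell. Without thinning, the 35 cells were 20 of 24 Sprr1a-led and 15 of 33 Klk6-led cells. The markers found in at least 25% of the cells were Sfn, Sbsn, Ly6d, Lypd3 and Krt10, of which Sfn and Sbsn also reached that share in other epithelial cells. Ivl (involucrin) and Sprr3, envelope proteins of fully stratified epithelium, were at 0 in all 57 cells. Trp63, the master regulator of stratified epithelium, was found in 3 cells, Krt5 in 2, Krtdap in 3 and Krt16 in 4. The squamous markers thus describe some of these cells, and the group was not 1 cell type. It is named here by its 2 genes.

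Markers of other cell types differed by type. The 5 B cell markers were at 0 in all 57 cells, 54 cells had no UMI of 9 T cell markers, and 9 macrophage markers summed to 41.1 CPM (gene UMIs per 1000000) against 67.3 in other epithelial cells. Neutrophil markers ran higher, at 223 against 163 CPM, with 39 of 57 cells and 5 of the 7 genes at 0 and 80 UMIs in 1 cell, and stood at 284 CPM in Klk6-led cells. Fibroblast markers also ran higher, at 55.7 against 19.7 CPM. Of the 8 fibroblast markers 5 were at 0, and Dcn, a matrix proteoglycan, had 39 UMIs in 5 Sprr1a-led cells of tumor 5, 64.1% of them in 1 cell. Skin and hair follicle markers, 12 genes, reached 792 CPM against 33.6, with 570 UMIs in 1 cell of isotype tumor 6 and 38 cells at 0. The part of these cells or RNAs in the results was not tested. No Sprr1a/Klk6 barcode occurred in another matrix, and 94 of 30246 barcodes occurred in 2 pools.

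Sprr1a-led cells carried hormone-sensing genes. Pgr was found in 15 of 24, Wnt4, a progesterone-responsive ligand, in 17, Foxa1, a pioneer factor for estrogen receptor, in 12, and Cited1, an estrogen receptor cofactor, in 10. All 4 were at 0 in the 33 Klk6-led cells and were found in 0.799%, 1.41%, 0.677% and 1.03% of other epithelial cells. Prlr was found in 17 of 24, at 2813 CPM against 81.9 in Klk6-led and 152 in other epithelial cells. The alarmin gene Il33 was found in 15, at 853 CPM against 12.0 and 9.46, and Wfdc2, a secreted protease inhibitor, in 17, at 2084 CPM against 67.4 and 45.1. Milk and secretory-lineage genes were low in them. Csn3 had 564 CPM in Sprr1a-led, 14206 in Klk6-led and 18138 in other epithelial cells, and the 16 milk protein genes together had 992, 19653 and 23326. Outside tumor 5, 6 of the 12 Sprr1a-led cells had Pgr and Prlr stood at 2883 CPM, so the hormone-sensing genes were not limited to that tumor.

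Part of the Klk6-led cells carried the milk genes, and other genes ran higher in the set. At least 3 of the 16 milk protein genes were found in 25 of 33 (75.8%) and in 91.6% of other epithelial cells. After thinning the shares were 57.6% and 70.5%. Csn3 ran from 0 to 1135 UMIs per Klk6-led cell. Wfdc18, a secreted luminal protein, had 48343 CPM in Klk6-led, 1650.0 in Sprr1a-led and 26494 in other epithelial cells. Ltf (lactoferrin) was found in 30 of 33, at 6537 CPM against 263 and 1555. Aldh1a3, a retinoic acid enzyme used as a luminal progenitor marker, was found in 16 of 33 (48.5%), in 1 Sprr1a-led cell and in 7.97% of other epithelial cells. The basal keratin gene Krt14 was found in 20 of 33, 5 of 24 and 14.8%. Ly6d, a surface marker of stratified epithelium, ran the other way, with 9 of 33, 21 of 24 and 13.3%. Genes found more often in both sets than in other epithelial cells were Krt7, in 27 and 21 cells against 47.7%, Areg, an EGF receptor ligand, in 12 and 13 against 1.47%, and Ly6a (Sca-1), in 24 and 20 against 19.1%. These genes were picked after their values were seen.

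**Figure D3:**
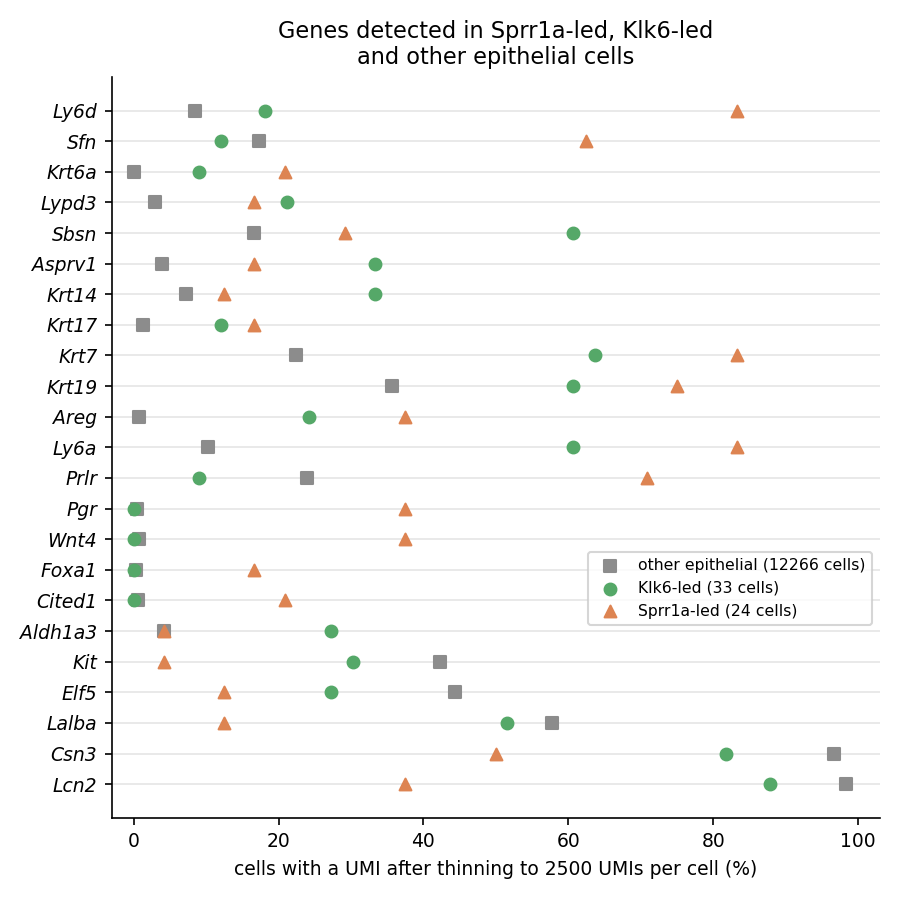
Percent of cells with a UMI of each gene after every cell was thinned to 2500 UMIs, in Sprr1a-led cells, Klk6-led cells and other epithelial cells of the 13 tumors. Pgr, Wnt4, Foxa1 and Cited1 are above 0 in Sprr1a-led cells and at 0 in Klk6-led cells, and Krt7, Areg and Ly6a lie to the right of other epithelial cells in both.

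Pgr+ epithelial cells were also counted by their Sprr1a UMIs, a count made after the pattern was noticed and given without a test. Of 70 isotype Pgr+ cells 2 had at least 3 Sprr1a UMIs, and of 46 B20-4.1.1 Pgr+ cells 12 had. Of those 12, tumor 5 gave 9 from 21 Pgr+ cells, and tumors 3, 4 and 8 gave 1 each, from 1, 5 and 4. Tumors 1, 6 and 9 gave 0 from 7, 2 and 6, and tumors 2 and 7 had no Pgr+ cell. The count therefore rested on tumor 5, and cells of a tumor are not replicates of the treatment. The median depth of Pgr+ cells was 12683.5 UMIs for the isotype group and 15130.0 for the B20-4.1.1 group.

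The neighbors of Klk6 on chromosome 7 were detected with it. In GRCm38 the gene lies at chr7:43824499-43832030, inside a run of 12 kallikrein genes that all lie on the plus strand. Of its 11 neighbors, 9 had a UMI in at least 1 of the 57 cells and 5 in at least 3. Klk10, whose gene starts 43.5 kb before that of Klk6, was found in 22 of 33 Klk6-led cells (66.7%), 3 of 24 Sprr1a-led cells and 2.90% of other epithelial cells. Klk8, 26.9 kb before it, was found in 20, 4 and 1.73%. Klk11 was found in 11, 2 and 0.677%, Klk14 in 8, 2 and 1.57%, and Klk7 in 7, 2 and 0.0734%. On the far side Klk5, 17.5 kb after the Klk6 start, was found in 1 cell, and Klk4 and Klk15 were at 0. At least 3 of the 11 neighbors were detected in 14 of 33 Klk6-led cells (42.4%), 3 of 24 Sprr1a-led cells (12.5%) and 15 of 12266 other epithelial cells (0.122%). Kallikrein genes are similar in sequence, and how the counting treated reads shared between them was not tested.

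**Figure D4:**
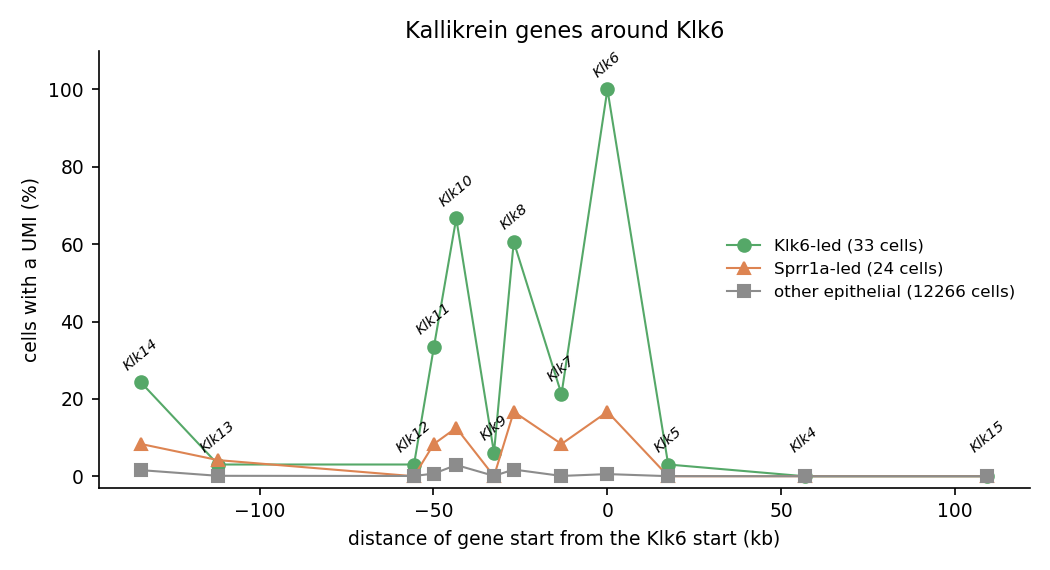
Percent of cells with a UMI of each kallikrein gene (vertical axis) against the distance of its start from the Klk6 start in kb (horizontal axis), in Klk6-led, Sprr1a-led and other epithelial cells. The neighbors detected in 3 or more Klk6-led cells lie before Klk6, with Klk10 at 66.7% and Klk8 at 60.6%, and Klk4 and Klk15 are at 0.

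Sprr1a, by comparison, was detected almost alone in its cluster. The gene lies at chr3:92483952-92485895, among small proline-rich, late envelope and filaggrin genes of the epidermal differentiation complex. Of 41 neighbors, 34 were at 0 in the 57 cells and 2 were found in 3 or more cells. Those were Sprr2a3, in 6 Sprr1a-led cells (4 in tumor 5), and Crct1, in 2 Sprr1a-led and 3 Klk6-led cells. Sprr2a3 has near-identical copies, so its count is uncertain. Lor (loricrin), the main late envelope protein, was at 0.

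The 57 cells were next compared with other epithelial cells of the same tumors for genes outside the rule. Counts were summed per tumor for 3 B20-4.1.1 tumors with at least 5 Sprr1a/Klk6 cells, namely tumor 5 (17 cells), tumor 7 (12) and tumor 9 (6). Of these 35 cells 15 were Sprr1a-led and 20 Klk6-led, and 2415 other epithelial cells stood against them. No isotype tumor had enough cells, so these tests say nothing of untreated tumors. With edgeR's quasi-likelihood test and the tumor as a block, 278 of 10189 genes tested (2.73%) passed an adjusted p of 0.05, 151 higher (1.48%) and 127 lower (1.25%). DESeq2 called 78 higher and 24 lower. The median log2 difference of all genes tested was -0.17, or -0.06 without scaling factors. Leaving out tumor 5, 7 or 9 gave 109, 175 or 348 calls, and 43 of the 278 calls were kept in all 3 of those fits. Among the called genes picked for naming, 15 of 56 called higher and 12 of 27 called lower were kept in all 3.

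The 4 kallikreins tested were all higher (median log2 difference 5.55). The rule chose cells on a gene of this family, and 9 of its 13 listed genes did not pass the filter on low counts. Klk7, Klk8 and Klk11 were too low in other epithelial cells to pass it without the Sprr1a/Klk6 cells. The count of 4 of 4 and the values of these genes are therefore a description. Klk8, a protease of the epidermal barrier, had 996, 188 and 48.0 CPM in Sprr1a/Klk6 cells of tumors 5, 7 and 9 and 5.51, 2.10 and 4.42 in other epithelial cells. Its log2 difference was 6.13 ± 0.46 (SE, edgeR adjusted p = 4.87e-26), with UMIs in 14 of 35 cells and 70.3% of them in 1 cell. Klk10 had 1488, 356 and 480 CPM against 11.5, 16.3 and 30.04 (4.98 ± 0.38, edgeR adjusted p = 4.44e-25, 13 cells). Of the Klk10 UMIs 58.5% lay in 1 cell. Klk7, which cleaves corneodesmosomes, had 1616, 356 and 112 CPM against 0, 0.419 and 0.126, from 4 cells, of which 1 held 87.8% of the UMIs. Klk11 was found in 8 cells, all Klk6-led (4.34 ± 0.94, edgeR adjusted p = 0.000606), and was no longer called without tumor 5 or without tumor 7. Klk14 was not among the genes tested, with 1458, 107 and 0 CPM against 2.76, 2.60 and 2.02, and 85.9% of its UMIs lay in 1 cell.

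In sums over both sets of cells, cornified envelope and late keratinocyte genes rose as well. Of 17 tested genes 12 were higher and none lower (median 1.92). They were Asprv1, S100a14, Ly6d, Cdsn, Spink5, Anxa8, Lypd3, Emp1, Sbsn, Dmkn, Cstb and Sfn. Another 26 list genes did not pass the filter on low counts. Cdsn passed it only through the Sprr1a/Klk6 cells, so its call is a description. Ly6d had 2386, 2375 and 480 CPM against 210, 33.7 and 123, higher in each tumor, though in tumor 9 a single cell carried it (3.75 ± 0.36, edgeR adjusted p = 1.37e-17, 20 of 35 cells). Asprv1 had 2026, 2919 and 96.1 CPM against 21.9, 24.6 and 14.6 (5.67 ± 0.41, edgeR adjusted p = 2.15e-27). In tumor 5, 1 cell held 452 of its 539 UMIs. The 2 genes came from unlike cells. Ly6d was found in 13 Sprr1a-led and 7 Klk6-led cells, and Asprv1 in 4 and 12. S100a14, a calcium-binding protein of stratified epithelium, had 78.9, 490 and 208 CPM against 15.2, 10.1 and 9.72 (4.05 ± 0.41, edgeR adjusted p = 3.57e-16). Emp1, a membrane protein, was found in 24 cells at 210, 369 and 608 CPM against 71.5, 50.03 and 76.2. Without tumor 7, 4 of the 12 stayed called, and DESeq2 called 8. In the marker list set for naming, 4 of 6 tested genes were higher and Krt10 (0.01 ± 0.55) and Tgm1 (1.22 ± 0.87) did not pass.

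Of 8 tested keratin genes 7 were higher and none lower (median 2.12). Krt7, a simple-epithelial keratin, had 2116, 852 and 672 CPM against 282, 224 and 157 (2.17 ± 0.30, edgeR adjusted p = 2.40e-09, 29 of 35 cells). Krt19 had 5791, 725 and 3426 CPM against 768, 441 and 769 (1.79 ± 0.27, edgeR adjusted p = 1.36e-07). In tumor 9, 1 cell held 179 of its 214 UMIs. Krt19 lost its call at a threshold of 2 UMIs (1.48, edgeR adjusted p = 0.0577) and with at least 3 Klk6 UMIs (1.21, edgeR adjusted p = 0.0514). Krt7 and Krt19 are keratins of ordinary luminal cells and not squamous ones. Krt17, a keratin of basal and stressed epidermal cells, was higher in tumor 7 (886 against 44.8 CPM) and tumor 9 (480 against 20.6) and lower in tumor 5 (22.5 against 95.6). Krt79 (4.43 ± 0.68) and Krt80 (4.05 ± 0.52), keratins of differentiated epithelium, Krt23 (2.08 ± 0.48) and Krt14 (1.65 ± 0.34) made up the 7. Krt79, Krt17 and Krt23 lost their call without tumor 7, and Krt14 without tumor 5. Of the Krt17 UMIs 62.5% lay in 1 cell, and of the Krt79 UMIs 56.25%. Krt79 passed the filter on low counts only through the Sprr1a/Klk6 cells, so its call is a description. Among epidermal keratins that did not pass the filter on low counts, Krt6a had 30 UMIs in 6 of the 35 cells, at 30.1, 148 and 0 CPM against 0.862, 0 and 1.01. Krt1 and Krt5 had a UMI in 1 of the 35 cells each, and Krt6b, Krt13 and Krt16 in none.

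Regulators of the squamous program moved little. Of 19 tested genes Klf4 (1.59 ± 0.33), which drives barrier formation, and Ovol1 (2.66 ± 0.64), an epidermal differentiation factor, were higher, and the nuclear receptor gene Rora (-2.84 ± 0.74) was lower (median 0.06). Klf4 lost its call without tumor 7, Ovol1 without tumor 5, and Rora without either. Of 16 junction genes Dsp (desmoplakin, 2.14 ± 0.40) and Cldn4 (1.71 ± 0.33) were higher, and of 19 hemidesmosome, laminin-332 and invasion genes none passed (median 0.15). Dsp lost its call without tumor 7 and Cldn4 without tumor 5. Of 19 AP-1 and immediate-early genes Atf3 (1.43 ± 0.30) and Dusp4 (1.83 ± 0.53) were higher (median 0.02), and Dusp4 lost its call without tumor 5 or tumor 7. These counts stand against 1.48% higher and 1.25% lower over all genes tested.

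Growth factor and arrest genes were among those called. Areg had 1150.0, 87.2 and 128 CPM against 60.1, 4.02 and 26.5 (3.64 ± 0.39, edgeR adjusted p = 1.06e-14, 15 of 35 cells, 7 of them Sprr1a-led and 8 Klk6-led). Of the Areg UMIs 52.6% lay in 1 cell. Hbegf, a second ligand of the EGF receptor, was 1.42 ± 0.41 higher, and of 7 ligand and receptor genes tested these 2 passed. The Hbegf call was lost without tumor 7, and without tumor 9 its difference was 0.57 (edgeR adjusted p = 0.799). Mxd1, a MYC antagonist of differentiating cells, was 2.99 ± 0.40 higher. Of 17 p53 and growth-arrest genes, Cdkn1a (1.76 ± 0.34), Cdkn2b (2.90 ± 0.77), Gdf15 (3.62 ± 0.93) and Plk2 (1.52 ± 0.39) were higher. None of these 4 calls held in all 3 fits that left out a tumor. Cdkn1a was lost without tumor 7, Plk2 without tumor 5 (0.71), Gdf15 without tumor 7 or tumor 9 (1.51 without tumor 9), with 75.0% of its UMIs in 1 cell, and Cdkn2b without any of the 3. Of 20 cell cycle genes Mki67 and Top2a were called, but all 57 Mki67 UMIs and 95.7% of the Top2a UMIs lay in 1 cell of tumor 9. S100a6, a calcium-binding protein, had 12244, 9232 and 6228 CPM against 2286, 1639 and 2466 (1.94 ± 0.23, edgeR adjusted p = 5.38e-12). Lgals3 (galectin-3) had 1097, 926 and 1153 against 356, 173 and 418 (1.68 ± 0.29), with an adjusted p of 0.0566 without tumor 7. The naming rule also gave Hopx, which 1 cell supplied with 90.5% of its UMIs, Pla2g7 (3.17 ± 0.53), Rdh10, a retinol dehydrogenase (2.76 ± 0.41), Cidea (2.62 ± 0.49) and Lama5, a laminin chain (2.56 ± 0.54). Hopx, Pla2g7 and Cidea lost their calls without tumor 7 and Lama5 without tumor 5 (1.47). Hopx, Cdkn2b, Gdf15 and Top2a were too low in other epithelial cells to pass the filter on low counts without the Sprr1a/Klk6 cells. Their calls are a description.

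**Figure D5:**
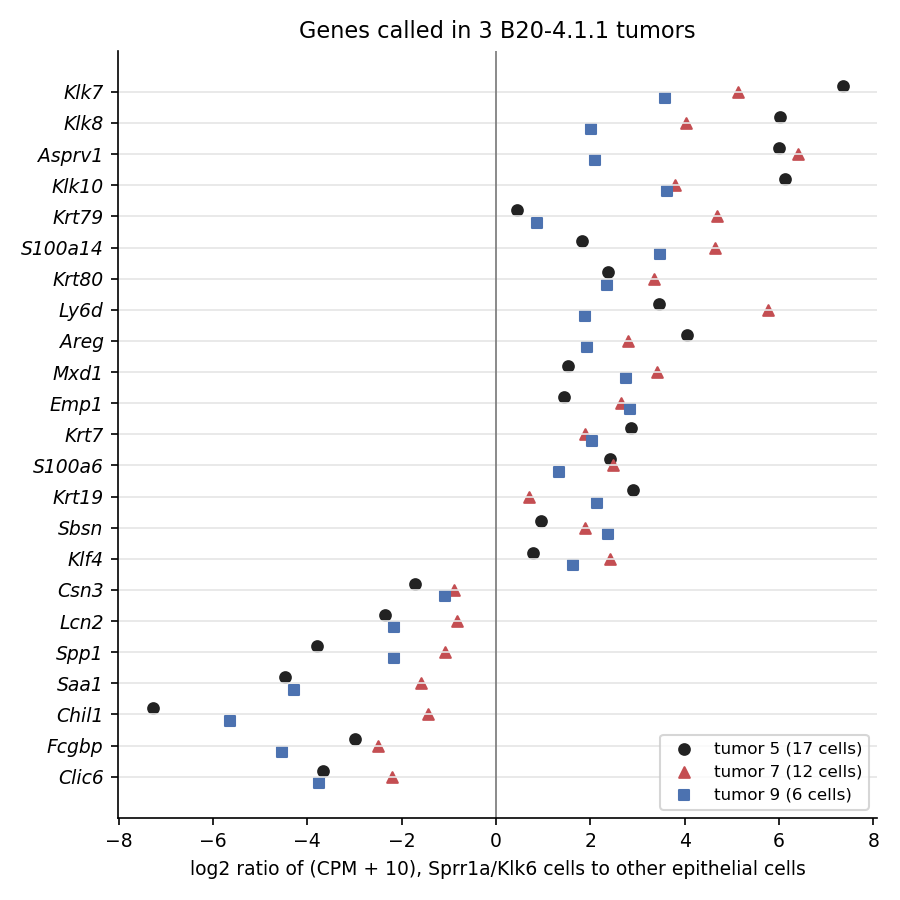
Log2 ratio of CPM + 10 between Sprr1a/Klk6 cells and other epithelial cells of the same tumor, for named genes called in the fit, with 1 point for each of 3 B20-4.1.1 tumors. Krt7, Areg and S100a6 lie right of 0 and Spp1, Lcn2 and Csn3 left of 0 in all 3 tumors, while Klk8 and Ly6d differ in size between tumors.

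Secreted luminal genes were lower. Spp1 had 1003, 2650.3 and 3859 CPM in the Sprr1a/Klk6 cells of tumors 5, 7 and 9 and 14019, 5585 and 17208 in other epithelial cells (-2.50 ± 0.24, edgeR adjusted p = 2.50e-17). Lcn2, an iron-binding defense protein, had 1887, 4455 and 2289.5 CPM against 9740.4, 7897 and 10355 (-1.95 ± 0.23, edgeR adjusted p = 2.53e-12). Csn3 had 5295, 10145 and 10183 against 17487, 18906 and 21704 (-1.39 ± 0.20, edgeR adjusted p = 6.04e-09). Among 17 cells of tumors 5 and 7 with at least 3 Klk6 UMIs, Csn3 (-0.65, edgeR adjusted p = 0.976) and Lcn2 (-1.04, edgeR adjusted p = 0.248) were not called, and Spp1 was (-2.01, edgeR adjusted p = 0.000119). Of 12 tested milk protein genes Csn3, Lalba (-1.56 ± 0.32) and Mfge8 (-1.04 ± 0.29) were lower and none higher (median -0.88), where Lalba and Mfge8 were higher in the Sprr1a/Klk6 cells of tumor 7 (1483 against 1260.3 and 933 against 801 CPM). The call of Lalba was lost without tumor 5, and that of Mfge8 without tumor 5 or tumor 9. The acute-phase genes Saa1 (-3.41 ± 0.39) and Saa2 (-2.64 ± 0.40) and the chitinase-like gene Chil1 (-4.73 ± 0.46, not called by DESeq2) were also lower. Of 28 defense genes 4 were lower, Saa1, Saa2, Lcn2 and Wfdc18 (-0.69 ± 0.18), and 3 higher, S100a6, Lgals3 and Il33 (3.28 ± 0.56). Of the Il33 UMIs 138 of 140 lay in tumor 5, and without it the difference was -0.066 (edgeR adjusted p = 1.00). Wfdc18 lost its call without tumor 7 or tumor 9, and stood at 0.44 with at least 3 Klk6 UMIs. Slpi, a protease inhibitor, did not pass (-0.26 ± 0.39).

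The luminal list was divided. Of 15 tested genes 5 were higher, Aldh1a3 (2.29 ± 0.37), Pgr (3.45 ± 0.70), Ly6a (1.87 ± 0.35), Cited1 (2.78 ± 0.60) and Wnt4 (2.68 ± 0.71), and 4 were lower, the alveolar lineage factor gene Elf5 (-1.30 ± 0.34), the receptor gene Kit (-1.30 ± 0.35), the Notch target Hey1 (-3.97 ± 0.79) and Mfge8 (median 1.02). The Pgr, Cited1 and Wnt4 UMIs all lay in tumor 5, which held 9, 7 and 11 such cells, all of them Sprr1a-led. Pgr, Cited1 and Wnt4 passed the filter on low counts only through the Sprr1a/Klk6 cells, so their calls are a description. Without tumor 5 the other 6 were not called and these 3 were not tested, and without tumor 7 Elf5 was not called (edgeR adjusted p = 0.0788). Of 5 tested basal genes Krt14, Krt17 and the chemokine gene Cxcl14 (3.03 ± 0.80) were higher, and of 20 interferon-stimulated genes Psmb9, a proteasome subunit (1.31 ± 0.40), was higher. Cxcl14 and Psmb9 lost their calls without tumor 5 or tumor 7. Cxcl14 had 68.4% of its UMIs in 1 cell and passed the filter on low counts only through the Sprr1a/Klk6 cells, so its call is a description.

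A further group was missing, or nearly so, from the 35 cells of tumors 5, 7 and 9. Scgb1b27, a secretoglobin, had no UMI in the 35 cells, where 105 would stand at the level of other epithelial cells, so it was at least 34.9-fold lower, taking 3 counts over all 35 cells as the limit that a count of 0 allows. Tspan8, a tetraspanin, was at least 14.7-fold lower, Foxi1, the transcription factor of proton-secreting epithelial cells, at least 8.30-fold, and the carbonic anhydrase gene Car12 at least 7.27-fold. The proton pump subunit gene Atp6v1b1 (-4.80 ± 0.71), the chloride channel gene Clic6 (-5.87 ± 0.81) and the mucin-like gene Fcgbp (-4.92 ± 0.67) had 1 or 2 UMIs each against about 56 at that level. Another 7 genes of the naming rule at 0, Wfdc12, Ctla2a, Pinc, Boc, Derl3, AU020206 and Meltf, had bounds of 2.98 to 4.68. Each of these 7 lost its call in at least 1 fit that left out a tumor, Wfdc12 without tumor 7 and the other 6 without tumor 5 or tumor 7, AU020206 and Meltf also without tumor 9, and DESeq2 called Wfdc12 alone among them. The bounds hold for these 35 cells and treat UMIs as independent counts. At a threshold of 2 UMIs, which adds 14 cells, the difference was -0.30 for Wfdc12, -1.43 for Pinc and -2.51 for Car12, none of them called. There Tspan8 (-3.57), Foxi1 (-5.16) and Scgb1b27 (-12.8) stayed called. With sums per pool, over 53 cells, Tspan8, Foxi1 and Car12 stood at -4.15, -3.89 and -3.86, and Scgb1b27 at -14.0. Other Sprr1a/Klk6 cells thus carried some of these genes. With 35 cells a gene expressed in few epithelial cells can be missed. Car12 lost its call without tumor 5, and Scgb1b27 was not called by DESeq2 (adjusted p = 0.837).

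Hypoxia genes moved little. Of 38 tested genes Ankrd37 (1.78 ± 0.47) and Stc2 (2.14 ± 0.48) were higher and Spp1 lower (median 0.22). Of the Stc2 UMIs 162 of 165 lay in tumor 5, and without it the difference was -0.38 (edgeR adjusted p = 1.00), while Ankrd37 lost its call without tumor 7 or tumor 9. Vegfa, the target of B20-4.1.1, was 1.16 ± 0.39 (edgeR adjusted p = 0.0961), with 63.9, 53.7 and 384 CPM against 35.7, 51.4 and 56.3. It was called at a threshold of 2 UMIs (1.61, edgeR adjusted p = 0.0301) and without scaling factors (1.32, edgeR adjusted p = 0.0168). Without the 5 highest cells it was also called (1.21, edgeR adjusted p = 0.0483), and in no other fit. Other fits called from 0 (DESeq2) to 5 (no scaling factors) of the hypoxia genes higher. The glucose transporter gene Slc2a1 was -0.29 ± 0.46 and Car9 0.08 ± 0.83. The 3-gene score of Vegfa, Slc2a1 and Car9 (mean of the natural log of 1 plus UMIs per 10000) was 0.181, 0.226 and 0.479 in the Sprr1a/Klk6 cells and 0.175, 0.211 and 0.192 in other epithelial cells. The difference was 0.103 ± 0.160 (SD, n = 3, exact sign-flip permutation test, two-sided p = 0.25, adjusted 0.25), and 0.25 is the smallest p that 3 tumors allow. Without tumor 9 it was 0.0107. Mitochondrial UMIs were 2.08%, 1.59% and 2.65% of the total against 3.75%, 3.08% and 3.56%, a mean difference of -1.36 points ± 0.398 (SD, n = 3, exact sign-flip permutation test, two-sided p = 0.25, adjusted 0.25), lower in 3 of 3 tumors.

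Similarity over genes outside the rule was described by nearest neighbors. In 16 principal components without the rule's genes, 31.2% of the 20 nearest epithelial neighbors of a Sprr1a/Klk6 cell in tumor 5 were such cells, where they made up 3.27% of the other cells. The shares were 12.9% and 1.10% in tumor 7, and 1.67% and 0.522% in tumor 9. In tumor 5 the 12 Sprr1a-led cells reached 40.8% and the 5 Klk6-led cells 8.00%. Of the 35 cells 9 had no such neighbor, 4 of them among the 6 cells of tumor 9. The cells lay close together in tumor 5, mostly the Sprr1a-led ones, and were scattered in tumor 9.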

How the data were processed

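The members, gene lists and tests were chosen with earlier results of these data known. Per the labels, the authors aligned reads to mm10 and counted them with Cell Ranger (bcl2fastq and Seurat 4.3.0 are also named), and deposited unnormalized UMI counts as a matrix for each tumor, holding 31053 genes beside 12 multiplexing features. From these counts, CPM are UMIs per 1000000 gene UMIs. No doublet caller was run, and doublets and free RNA stay in the counts. UMI counts were summed per tumor over member and over other epithelial cells and tested in edgeR 4.0.16 (TMM, filterByExpr, quasi-likelihood F test, two-sided, tumor as a block, Benjamini-Hochberg over all genes tested). The rule's 6 genes were left out. Tumors with at least 5 member cells were used because fewer than 3 had 10. On simulated data for this comparison, 75 of 100 genes changed by 3 log2 units, 52 of 99 changed by 2 and 3 of 9631 unchanged genes were called. Per the labels, each tumor of a pool came from its own mouse. Named genes were up to 15 per direction with the largest log2 difference among called genes with a mean log2 CPM of at least 4 and 1 direction in all 3 tumors, the 4 lowest p in each list, and genes set by name. Other list members called, the marker genes given for single cells and those in the comparison of Sprr1a-led and Klk6-led cells were chosen after their values were seen. Coordinates are GENCODE M21 and promoters RefSeq, both GRCm38. Python 3.11.15, scanpy 1.11.5, R 4.3.3 and DESeq2 1.42.0 were used.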

Additional observations from a re-analysis of the deposited data

Results flagged for a closer look

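In 14 groups of 6 isotype or 9 B20-4.1.1 tumors, samples far from the rest of their group were looked for. Chance alone marks about 1 group in 20 where values are normally spread and groups independent, which was not shown here. The groups overlap, and most values come from the Sprr1a and Klk6 counts that chose the cells. The marks are therefore a description. B20-4.1.1 tumor 5 stood apart in its share of Sprr1a/Klk6 cells, 3.47% against 1.25% in the next tumor. It also stood apart in Sprr1a, with 259 UMIs per 1000000 epithelial UMIs against 81.4 in the next, and in Klk6, with 317 against 61.1, of which 1 cell gave 1701 of the 1922 UMIs. Among the isotype tumors, tumor 1 stood apart in Klk6, with 2.37 UMIs per 1000000 against 0.868 in the next, and 1 cell gave 13 of its 22 UMIs.

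Cells that the comparisons did not use also held the pair of genes. A B20-4.1.1 cell of tumor 7 without Ptprc and with 4 epithelial UMIs had 66 Sprr1a UMIs, where the highest among such isotype cells was 0, and a like cell of tumor 3 had 20. Among epithelial cells outside the UMI or mitochondrial limits, 2.03% of 641 B20-4.1.1 cells and 0.371% of 2425 isotype cells had at least 3 UMIs of the pair, the highest with 841 and 25.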

How the results depend on the processing

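The comparison called 278 genes (151 higher, 127 lower). A threshold of 2 UMIs gave 137 (79 and 58), thinning to 2500 UMIs 143 (61 and 82), at least 3 Klk6 UMIs 151 (42 lower), sums per pool 710 (376 and 334) and DESeq2 102 (78 and 24). The fit with no replicate block for the tumor gave 17 (15 and 2). Leaving out 1 tumor gave 109 to 348 (73 to 229 higher, 36 to 119 lower), lowest without tumor 5, 175 without tumor 7 and highest without tumor 9. Without the 5 highest cells, an alternative chosen after seeing the data, it gave 301, 246 of them shared. Signs turned with at least 3 Klk6 UMIs for Stc2 (-0.11), Mki67 (-8.52), Psmb9 (-0.27), Il33 (-2.22) and Wfdc18 (0.44), with DESeq2 for Mki67 (-1.45) and with sums per pool for Slpi (1.05). Leaving out 1 tumor gave -0.38 to 2.76 for Stc2 and -0.066 to 4.24 for Il33, both lowest without tumor 5, and -8.18 to 3.77 for Mki67 and -0.45 to 3.48 for Top2a, both lowest without tumor 9. Without scaling factors 198 were higher and 115 lower. Causes were not tested. Mean shares in isotype and B20-4.1.1 tumors were 0.447% and 2.84% at 1 UMI, 0.0241% at 5 UMIs in isotype, and 0.0397% in isotype after thinning. Leaving out a pool gave 0.135% to 0.172% and 0.557% to 1.19%. The hypoxia score difference ranged from 0.0107 to 0.151 and the mitochondrial difference from -1.58 to -1.20 points without 1 tumor. At least 3 Sprr1a UMIs left 1 tumor, and leaving out the pool of tumors 7 and 9 left 1, so neither could be fitted. With 35 cells, genes found in few cells are poorly measured.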
